A study of Homo sapiens with 32 samples.

Results

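The question was what salinomycin (Sal) does to the transcripts of breast cancer (BC) cells that also receive dasatinib (Das). RNA-seq libraries of MDA-MB-468 cells treated with the drug combination (S + D) or with Das alone for 72 h, 4 of each, were compared. These are 8 of the 32 libraries of the series, chosen by their treatment and time labels, and not by any measured value. The combination held 0.5 μM Sal and 15 μM Das, and the Das group received 15 μM Das, so the groups differ by Sal and share Das. The study describes S + D as both drugs given concurrently. Sal added to Das thus names a comparison and not an order of treatment. Cells given PBS (control) or 0.5 μM Sal for 72 h, with 4 libraries each, and the corresponding libraries at 24 h were used to set this response beside that to Sal without Das and to the earlier time point. Each culture flask was seeded, left overnight and then treated, and the labels call the 4 libraries of a condition biological replicates without saying on which days they were made. Replicate numbers from 1 to 3 are given for all but 1 library of a condition, here called the unnumbered library. MDA-MB-468 is an established line of triple-negative BC, and all results concern this single line in monolayer culture.

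Sal is a polyether antibiotic that carries monovalent cations, potassium in particular, across membranes, and it is known for its toxicity to BC cells with stem cell traits. Das is an inhibitor of the SRC and ABL families of kinases, which act upstream of the ERK and STAT3 pathways. Ionophores disturb the ion balance and the trafficking of the endoplasmic reticulum (ER), Golgi and lysosomes, and cells answer unfolded proteins in the ER by making more chaperones and cells short of sterol by activating SREBP2, the factor that drives the genes of cholesterol synthesis.

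The libraries held between 27812240 and 39373515 counts. Levels are in CPM (counts over the TMM-scaled library total) and changes as log2 fold changes (S + D over Das) with an approximate standard error (SE). The SE was taken as the size of the log2 fold change over the square root of the F statistic of the test. A gene was called at an adjusted p below 0.01 of edgeR's quasi-likelihood test, and past both cutoffs when its log2 fold change was also above 1.5 in size. The Das group was not uniform. On the first principal component of the 16 libraries at 72 h, which held 66.0% of the variance, replicate 3 of Das lay at -79.3, near the controls (-104 to -93.3), while the other 3 Das libraries lay between -25.6 and -6.40 and the S + D libraries between 67.0 and 72.6. List counts that differ without Das replicate 3 are therefore given with it and without it. Of 13 epithelial and basal markers, EPCAM was between 240 and 386 CPM over the 8 libraries. EGFR, which is amplified in this line, was between 2767 and 5792 CPM. Not all were high: KRT6A held 14 counts in the 4 Das libraries together and 3 in the 4 S + D libraries. Of 11 markers of leukocytes, endothelium, fibroblasts and muscle, 4 passed the filter on low counts, 1 rose with S + D (COL1A1, log2 fold change 0.86) and none fell. The sum of the 11 was 38.1 to 73.4 CPM with Das and 72.6 to 127 CPM with S + D, most of it COL1A1, while CD3E and COL1A2 were at 0 in all 8 libraries and PTPRC at 0 in the 4 S + D libraries. COL1A1 did not pass in 3 of 18 alternatives, with an adjusted p of up to 0.029 when the 7 libraries without Das replicate 3 were fitted on their own. Any part of such cells in the results was not tested.

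Adding Sal to Das changed more genes downward than upward. Of 16682 genes tested, 585 were higher (3.51%) and 892 lower (5.35%) with S + D than with Das past both cutoffs, and at the adjusted p alone 2391 were higher (14.3%) and 2957 lower (17.7%). The shares at the adjusted p alone are those to set beside the counts in gene lists. Without Das replicate 3 these shares were 11.5% and 13.1%. The 4 S + D libraries lay above all 4 Das libraries for 574 of the 585 higher genes and below them for 871 of the 892 lower genes, where 18.8% and 20.6% of all genes tested did not overlap in these directions. RNA was measured from whole cultures, so a lower share of cells in a given state and less of its RNA per cell cannot be told apart.

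Mitotic genes showed the broadest change. Of 30 genes of mitosis, 29 fell and none rose, 26 of them past both cutoffs, with a median log2 fold change of -2.25 (all genes tested: -0.01). Their summed level was 2461, 1577, 1855 and 4870 CPM in the unnumbered Das library and Das replicates 1 to 3, and 760.7, 461.8, 502.2 and 490.5 CPM in the S + D libraries in the same order. The groups did not overlap, but Das replicate 3 stood above the other Das libraries and also above the control libraries (4453 to 4732 CPM). Without it 29 genes of the list fell again, with a median of -1.83 (all genes: 11.5% higher and 13.1% lower at the adjusted p).

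**Figure D1:**
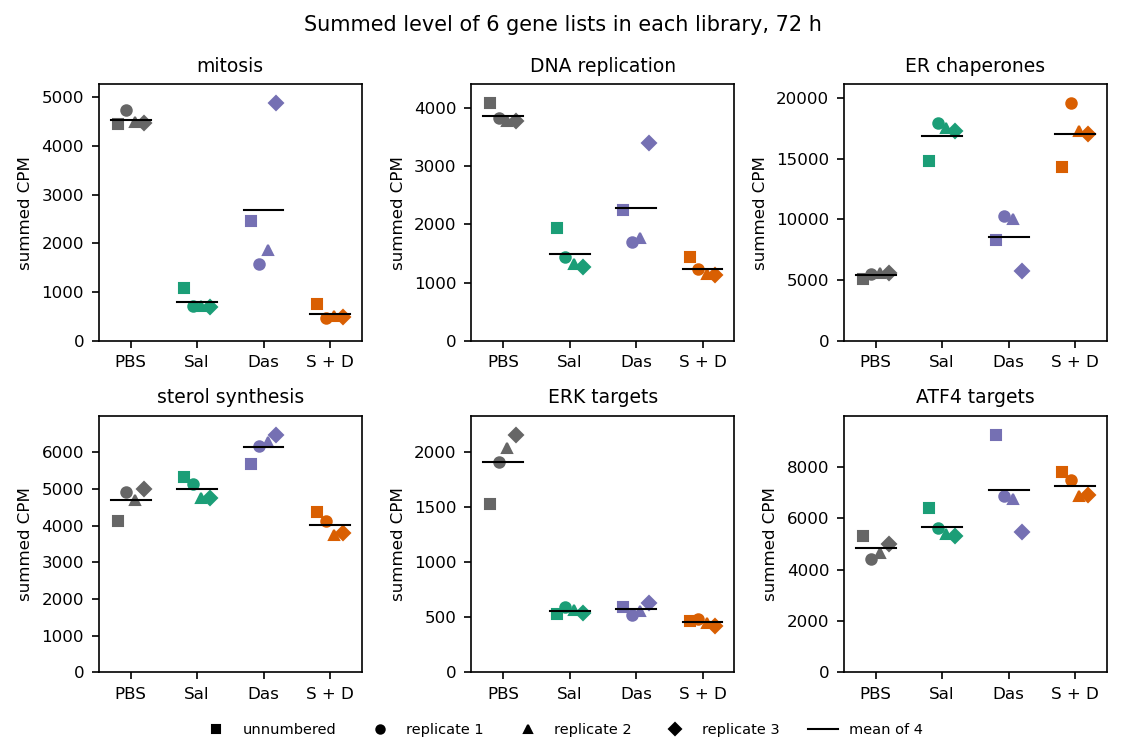
Summed CPM of 6 gene lists (vertical axes, linear from 0) in each library of the 4 treatments at 72 h (horizontal axes). Points are libraries, with a symbol for each replicate number, and lines are means of 4. Mitosis and DNA replication are low with Sal and S + D, ER chaperones lie higher with Sal and S + D than with PBS or Das, and sterol synthesis lies highest with Das. Das replicate 3 lies near PBS for mitosis and ER chaperones but nearer to the other Das libraries for sterol synthesis and ERK targets.

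The largest fall of the mitosis list was that of ASPM, which organizes the spindle poles. It was at 100, 75.2, 95.1 and 238 CPM with Das and at 12.8, 5.87, 9.60 and 10.4 CPM with S + D. All 4 S + D libraries were below the lowest Das library, and the log2 fold change was -3.72 (SE 0.31, adjusted p = 2.25e-07). CENPE, a kinetochore motor, fell by 3.66 on the log2 scale, and ESPL1, the separase that cuts cohesin at anaphase, by 3.43. MKI67, the proliferation marker, was at 166, 115, 137 and 477 CPM with Das and at 28.9, 11.1, 26.5 and 21.4 CPM with S + D. FOXM1, a transcription factor of late cell cycle genes, fell by 3.19 on the log2 scale and BIRC5 (survivin), which works in chromosome segregation and blocks apoptosis, by 2.55. MAD2L1 of the spindle checkpoint was the 1 member that did not pass, at 29.7, 24.9, 26.3 and 41.5 CPM with Das and 25.8, 27.8, 21.3 and 21.9 CPM with S + D.

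Promoters of such genes are known to carry the CHR element, bound by the MuvB complexes that repress them in resting cells and activate them in late cycle. To show where it lies, the 250 bases before the start of ASPM and ESPL1 are printed from RefSeq (GRCh38.p14), chosen as the members with the largest falls whose upstream bases hold it, with TTTGAA or TTCGAA on either strand in capitals. They span chr1:197146670-197146919 on the minus strand for ASPM, where the element ends 108 bases before the start, and chr12:53268049-53268298 on the plus strand for ESPL1, where it ends 26 bases before it.
ASPM: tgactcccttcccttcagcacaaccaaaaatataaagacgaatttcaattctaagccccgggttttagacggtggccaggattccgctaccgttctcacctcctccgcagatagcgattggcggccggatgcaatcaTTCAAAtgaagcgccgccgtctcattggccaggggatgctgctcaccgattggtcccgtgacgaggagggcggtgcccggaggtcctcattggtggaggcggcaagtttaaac
ESPL1: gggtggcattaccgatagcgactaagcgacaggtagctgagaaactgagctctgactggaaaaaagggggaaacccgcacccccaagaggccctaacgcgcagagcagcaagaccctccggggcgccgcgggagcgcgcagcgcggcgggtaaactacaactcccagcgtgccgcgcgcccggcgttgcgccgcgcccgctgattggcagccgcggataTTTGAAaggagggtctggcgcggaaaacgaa

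In windows of 300 bases, from 250 before to 50 after the start, 19 of the 25 mitosis genes with a RefSeq promoter held TTTGAA or TTCGAA (76.0%), against 16.6% of all 27305 promoters. The DNA replication list held it in 2 of 30 (6.67%) and held an E2F motif, TTTCCCGC or TTTGGCGC on either strand, in 15 of 30 (50.0%), against 2.31% of all promoters. These are counts of letters and not sites at which binding was measured.

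Genes of DNA replication fell to a smaller degree. Of 34 members, 24 fell and 1 rose, with a median log2 fold change of -0.94, and without Das replicate 3 the counts were 20 and 1 with a median of -0.61. RRM2, the ribonucleotide reductase subunit that limits the supply of deoxynucleotides in S phase, was at 121, 83.9, 105 and 397 CPM with Das and at 10.9, 7.88, 8.72 and 6.74 CPM with S + D, and changed by -4.36 on the log2 scale (SE 0.48, adjusted p = 2.61e-06). MCM10, an initiation factor, fell by 3.25 on the log2 scale and TYMS, which makes thymidylate, by 2.33. TYMS shares 47.9% of its exon bases with ENOSF1, so reads of these genes cannot be told apart without strand. The replicative helicase subunits fell less, from -0.60 (MCM3) to -1.60 (MCM5) on the log2 scale for MCM2 to MCM7, and MCM2, MCM3 and MCM6 did not pass without Das replicate 3. RFC2, a clamp loader subunit, was the member that rose, from 40.1, 42.1, 40.2 and 52.0 CPM to 61.05, 73.6, 58.4 and 58.9 CPM. The upstream bases of TYMS are shown as those of the member with the largest fall and an E2F motif in them (capitals), at chr18:657403-657652 of GRCh38.p14 on the plus strand.
TYMS: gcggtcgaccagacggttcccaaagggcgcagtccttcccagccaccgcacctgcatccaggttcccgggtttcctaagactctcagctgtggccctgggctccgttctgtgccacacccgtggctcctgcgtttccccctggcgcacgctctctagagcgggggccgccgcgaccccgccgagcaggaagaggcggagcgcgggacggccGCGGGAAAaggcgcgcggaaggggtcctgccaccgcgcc

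Among 29 regulators of S-phase entry tested, 15 fell and 5 rose. CCND1, the D-type cyclin that starts the G1 kinases, was at 56.9, 49.2, 51.95 and 98.1 CPM with Das and at 16.5, 15.1, 19.02 and 20.1 CPM with S + D (log2 fold change -1.86, SE 0.18, adjusted p = 7.26e-07). E2F1 fell by 2.48, E2F2 by 2.29, E2F7 by 3.36 and CDC25A, the phosphatase that activates CDK2, by 1.70 on the log2 scale. The cyclin CCNE2 fell by 3.18, but 37.1% of its exon bases are shared with INTS8, and since the use of strand in the counting is not known, reads of these genes cannot be told apart. MYC was at 67.9, 49.5, 51.8 and 97.2 CPM with Das and at 27.2, 30.2, 27.9 and 30.2 CPM with S + D, and fell by 1.21. The risers were the CDK inhibitor CDKN1A (p21; log2 fold change 1.52), CCND3 (0.85), E2F4 (0.68), CCNA1 (3.54) and ESR2. CCNA1, the germ cell cyclin A, was at 0.486, 0.154, 0.283 and 0 CPM with Das and at 4.37, 2.79, 2.06 and 2.09 CPM with S + D.

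ESR2 encodes estrogen receptor β. It was at 0.195, 0.185, 0.354 and 0.279 CPM with Das and at 1.45, 0.785, 1.39 and 1.21 CPM with S + D, all low levels whose groups did not overlap (log2 fold change 2.26, SE 0.33, adjusted p = 4.22e-05). ESR1, which encodes estrogen receptor α, went the other way, from 8.59, 10.2, 11.9 and 9.004 CPM to 4.87, 4.96, 6.73 and 6.24 CPM (log2 fold change -0.79, adjusted p = 0.000422). STAT3, a target of SRC signaling, was at 202 to 226 CPM with Das and 181 to 226 CPM with S + D and did not pass (log2 fold change -0.05, SE 0.10, adjusted p = 0.694). Of the SRC and ABL kinases and their regulators, 3 fell and 1 rose among 11 tested, beside 17.7% and 14.3% of all genes. SRC itself fell by 1.09 on the log2 scale and LYN, a kinase of the same family, rose by 0.73 (not passing in the fit of the 7 libraries compared without Das replicate 3, adjusted p = 0.0107).

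The BRCA1 and homologous recombination genes included 20 that fell and none that rose among 28, with a median log2 fold change of -1.33 (19 and -1.09 without Das replicate 3). BRIP1, the helicase partner of BRCA1, was at 11.7, 8.49, 9.71 and 28.9 CPM with Das and at 2.503, 1.57, 1.83 and 1.59 CPM with S + D (log2 fold change -2.97, SE 0.34, adjusted p = 4.45e-06). EXO1, a nuclease that resects DNA ends, fell by 2.94 and BLM, a RecQ helicase, by 2.63, while BRCA1 fell by 1.10 on the log2 scale. The kinases ATM (log2 fold change 0.38, adjusted p = 0.0964) and ATR (-0.11, adjusted p = 0.506) did not pass.

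ER chaperones and quality control genes moved in the opposite direction. Of 17 members, 13 rose and 1 fell, with a median log2 fold change of 0.98, and without Das replicate 3 the counts were 11 and 1 with a median of 0.85. The sum of the list was 8273, 10300, 9994 and 5748 CPM with Das and between 14320 and 19540 CPM with S + D. HSPA5 (BiP), the main ER chaperone, was at 1160, 1437, 1300 and 373 CPM with Das and at 3671, 4497, 3705 and 3606 CPM with S + D. Its log2 fold change was 1.86 (SE 0.26, adjusted p = 3.17e-05), and without Das replicate 3, which was at the control mean of 378 CPM, it was 1.60. HSP90B1 rose by 1.19, HYOU1 by 1.27, CALR by 1.10 and SDF2L1 by 1.37 on the log2 scale. XBP1, a transcription factor of the unfolded protein response, was the 1 member that fell, from 1409, 808, 887 and 1323 CPM to 450, 392, 293 and 290 CPM (log2 fold change -1.64, SE 0.18, adjusted p = 3.46e-06). These counts do not separate its spliced from its unspliced transcript.

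The ER stress element ERSE (CCAAT, then 9 bases of any kind, then CCACG, on either strand) stood in 5 of the 17 promoters of this list (29.4%), those of HSPA5, HSP90B1, CALR, CRELD2 and XBP1, against 0.0806% of all promoters. XBP1, which fell, thus held the same letters as 4 genes that rose. The 250 bases before the start of the risers with the largest changes are shown with the element in capitals, at chr9:125241344-125241593 on the minus strand for HSPA5 and at chr22:49918384-49918633 on the plus strand for CRELD2 (GRCh38.p14). The CCAAT part of the element in CRELD2 lies on the other strand and reads ATTGG.
HSPA5: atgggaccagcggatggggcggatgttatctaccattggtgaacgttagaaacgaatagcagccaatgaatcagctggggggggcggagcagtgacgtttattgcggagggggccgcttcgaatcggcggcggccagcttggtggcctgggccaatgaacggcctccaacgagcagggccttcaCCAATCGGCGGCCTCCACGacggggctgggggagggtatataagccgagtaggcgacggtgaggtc
CRELD2: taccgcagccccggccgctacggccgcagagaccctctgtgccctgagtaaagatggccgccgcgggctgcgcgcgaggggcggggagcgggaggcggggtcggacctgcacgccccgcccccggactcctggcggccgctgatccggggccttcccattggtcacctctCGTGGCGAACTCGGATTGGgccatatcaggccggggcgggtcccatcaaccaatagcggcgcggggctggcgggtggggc

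Of 24 targets of ATF4, the factor of the integrated stress response, 5 rose and 2 fell (5 and 1 without Das replicate 3), and the median was 0.05. With 14.3% of all genes higher and 17.7% lower, the count of rises lies near that over all genes. ATF3 was at 64.7, 47.1, 41.1 and 13.2 CPM with Das and at 203, 152, 139 and 135 CPM with S + D (log2 fold change 1.92, adjusted p = 0.000129). The other risers were PPP1R15A, which restarts translation after stress (1.64), DDIT3 (CHOP; 1.59, with 31.6% of its exon bases shared with MARS1), STC2 (1.01) and NUPR1 (0.78). The members that fell were ASNS and MTHFD2, by 0.75 and 0.34, the latter not without Das replicate 3 (adjusted p = 0.0338). In the lysosome and autophagy list 7 of 27 rose and 1 fell (5 and 2 without Das replicate 3). MAP1LC3B, which coats autophagosomes, rose by 1.24 on the log2 scale and the cargo receptor SQSTM1 by 0.98. FTL, the light chain of the iron store ferritin, was at 540, 597, 545 and 190 CPM with Das and at 1399, 1723, 1273 and 1311 CPM with S + D (log2 fold change 1.61, adjusted p = 5.86e-05), and the iron exporter SLC40A1 fell by 2.17.

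In sterol synthesis 13 of 24 genes fell and none rose, with and without Das replicate 3, and the median log2 fold change was -0.52 (-0.47 without it). Their sum was 5683, 6174, 6289 and 6475 CPM with Das and 4380, 4140, 3737 and 3812 CPM with S + D. INSIG1, which holds the sterol sensor in the ER, was at 94.9, 133, 147 and 134 CPM with Das and at 55.96, 67.2, 55.5 and 54.55 CPM with S + D (log2 fold change -1.13, SE 0.19, adjusted p = 0.000162). All 4 S + D libraries were below the lowest Das library. The methyl oxidase MSMO1 fell by 0.77, the reductase TM7SF2 by 0.72 and HMGCS1, a synthase early in the pathway, by 0.62 on the log2 scale. SQLE (-0.27, adjusted p = 0.314) and IDI1 (-0.07, adjusted p = 0.756) did not pass. In fatty acid synthesis 5 of 9 fell and 2 rose (4 and 2 without Das replicate 3). FASN was at 1080, 809, 801 and 1186 CPM with Das and at 420, 245, 352 and 334 CPM with S + D, and the desaturases FADS2 (log2 fold change 1.33) and FADS1 (0.96) were the members that rose.

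**Figure D2:**
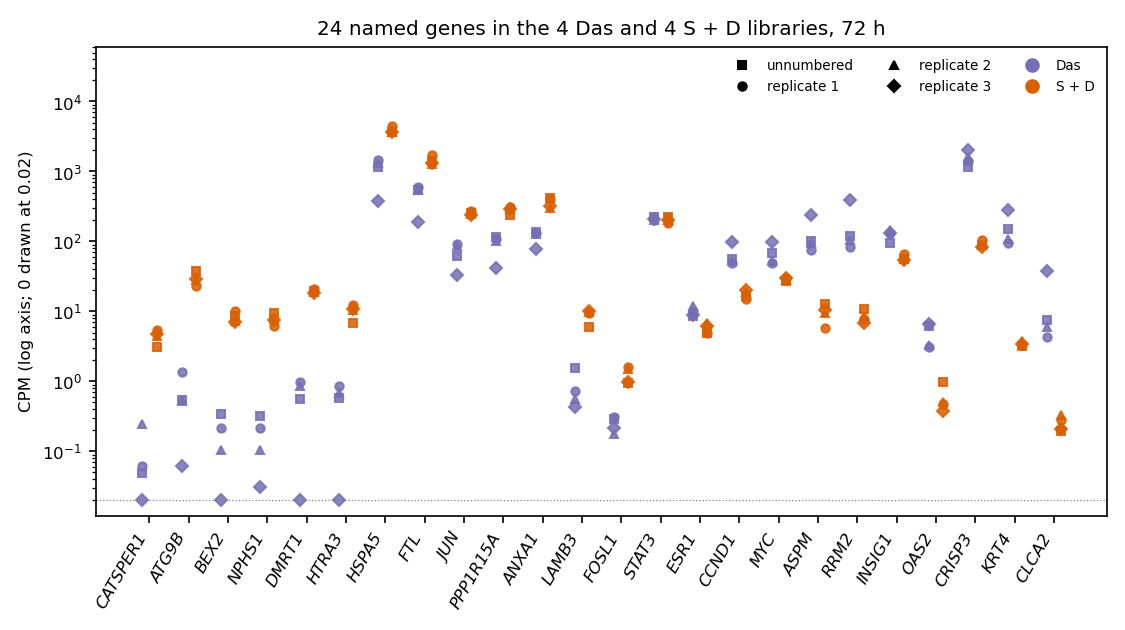
CPM (vertical axis, log scale, 0 drawn at 0.02) of 24 named genes (horizontal axis) in the 4 Das and 4 S + D libraries at 72 h. Points are libraries, with a symbol for each replicate number. STAT3 overlaps between the groups, and in the 6 genes on the left Das replicate 3 is the lowest Das library.

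The largest rises by fold were those of genes with almost no counts in Das. ADAMTS16, a secreted metalloprotease, held 1 count in the 4 Das libraries together and 57 to 60 in each S + D library, a ratio of summed counts of 224 with a 95% counting interval from 39.9 to 8900. CATSPER1, a sperm calcium channel subunit, was at 0.0486, 0.0616, 0.248 and 0 CPM with Das and at 3.14, 5.40, 4.46 and 4.71 CPM with S + D (log2 fold change 5.67). ATG9B, a lipid scramblase of autophagosome formation, was at 0.535, 1.39, 0.531 and 0.0619 CPM with Das and at 38.3, 23.0, 28.0 and 29.4 CPM with S + D (log2 fold change 5.56, SE 0.43, adjusted p = 9.50e-08), and 12.3% of its exon bases are shared with NOS3. DMRT1, a testis transcription factor, reached 18.1 to 20.9 CPM with S + D from at most 0.985 CPM. The others named by size of rise were SIGLEC1, BIRC7, HTR3A, BEX2, NPHS1, BEX4, DYM-AS1 and LINC02874, with log2 fold changes from 4.93 to 5.84. Of all 585 higher genes 133 were long non-coding RNAs and 419 protein-coding, against 104 and 720 of the 892 lower genes. The shares of these types among all genes tested were not counted, so no excess of either type can be read from this.

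The largest fall was that of SLC5A8, a monocarboxylate transporter, which held 26 to 68 counts in each Das library and 0 in all 4 S + D libraries, at least 16.04-fold lower against a floor of 3 counts per library. KRT4, a keratin of stratified epithelium, was at 150, 96.6, 109 and 285 CPM with Das and at 3.23, 3.26, 3.79 and 3.44 CPM with S + D (log2 fold change -5.54, SE 0.32, adjusted p = 1.06e-08). CRISP2 and its neighbor CRISP3 fell by 5.65 and 4.08 on the log2 scale, CRISP3 from 1140, 1428, 1627 and 2029 CPM to between 82.4 and 105 CPM. Also among the largest falls were CLCA2, FMO6P, CYP4Z1, the pseudogene CYP4Z2P, SNCAIP, CGA, CNIH2 and LRRC31, with log2 fold changes between -5.76 and -4.85. CYP4Z1 and CYP4Z2P are near-identical copies, so reads may have been divided between them.

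Of the other pathways, Wnt and hedgehog genes held 9 falls and 2 rises among 16 tested (8 and 1 without Das replicate 3), with AXIN2, a feedback target of Wnt signaling that shares 25.3% of its exon bases with an unnamed gene, at -1.98, the Wnt antagonist SFRP1 at -1.98 and the stem cell marker CD44 at -1.44 on the log2 scale. The list of EMT and cell adhesion genes held 6 rises and 2 falls among 12 (4 and 1 without Das replicate 3). LAMB3, a laminin chain of the basement membrane, was at 1.53, 0.739, 0.567 and 0.433 CPM with Das and at 6.06, 9.51, 9.78 and 10.2 CPM with S + D (log2 fold change 3.40, adjusted p = 0.000112), while fibronectin (FN1) fell by 3.32. The rises of vimentin (VIM, 0.89), ZEB1 (1.67) and SNAI1 (1.14) were among the 6, and ZEB1 and SNAI1 did not pass without Das replicate 3 (adjusted p = 0.0135 and 0.0106). In the list of the sodium-potassium pump and osmotic response, 4 of 10 fell and 1 rose (4 and 0 without Das replicate 3), and SLC12A2, the sodium-potassium-chloride cotransporter, fell from 104, 113, 123 and 189 CPM to 31.3, 23.4, 27.7 and 28.2 CPM (log2 fold change -2.26, SE 0.18, adjusted p = 1.07e-07).

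Over all genes tested 14.3% were higher and 17.7% lower, the shares to set beside the counts that follow. Without Das replicate 3 the shares were 11.5% and 13.1%, and the numbered libraries gave 2779 higher and 3268 lower of 16527 genes. Epithelial and basal markers held 4 falls and 1 rise among 13, with KRT14 at -2.34 and KRT16 at 2.07 on the log2 scale. KRT14 was low with S + D, at 0.232 to 0.502 CPM. In the interferon response 5 of 24 fell and 4 rose (3 and 2 without Das replicate 3), shares near those over all genes, with OAS2, a sensor of double-stranded RNA, at -3.03 and ISG15 at 1.79, the latter not passing without Das replicate 3 (adjusted p = 0.0186). ISG15 passed in 10 of 18 alternatives, and also failed without Das replicate 1 or 2 and in the fit of all 32 libraries. In the BCL2 family 5 of 15 fell and 2 rose, and 3 and 1 of these did not pass without Das replicate 3. The largest of these falls was that of BCL2L11 (BIM), which promotes apoptosis, from 71.9, 58.3, 61.9 and 121 CPM to 34.9, 25.9, 31.2 and 30.3 CPM. NRF2 targets held 3 rises and 4 falls among 14 (3 and 3 without Das replicate 3), with GCLM at 1.04 and AKR1C1 at -1.80. Glycolysis and hypoxia genes held 4 rises and no fall among 18, with ALDOA at 1.06, where the fit without Das replicate 3 gave 3 and 0 and that of the numbered libraries 9 and 1. YAP targets held 1 rise (ANKRD1, 1.73) and 4 falls (CCN2, -2.51, the largest) among 12. Ribosome biogenesis held 3 rises (RRP12, 1.68, the largest) and 4 falls among 18, near the shares over all genes. Without Das replicate 3 this list held 3 rises and 1 fall. STAT3 and SOCS genes held 1 rise (SOCS2, 1.43) and 3 falls among 11 (1 and 2 without Das replicate 3).

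The targets of ERK signaling were low with Das alone. Their sum was 1525 to 2156 CPM in the controls, 524.1 to 631.5 CPM with Das and 423.5 to 483.8 CPM with S + D. With Das alone 13 of 16 were lower than the control and none higher (9.36% and 10.5% of all genes). Adding Sal lowered 7 and raised 5 of the 16, and 6 and 3 without Das replicate 3. DUSP4, an ERK phosphatase, was at 143, 137, 151 and 133 CPM with Das and at 20.7, 21.4, 25.1 and 19.5 CPM with S + D (log2 fold change -2.70, SE 0.10, adjusted p = 3.10e-11). JUN, a subunit of AP-1, was at 61.5, 93.3, 85.9 and 33.3 CPM with Das and at 258, 274, 243 and 235 CPM with S + D, and rose by 1.88. FOSL1, another AP-1 subunit, rose by 2.32 from no more than 0.308 CPM. EGR1 was at 0.851, 0.892, 0.957 and 7.43 CPM with Das and at 0.334, 0.126, 0.258 and 0.265 CPM with S + D, so that its log2 fold change of -3.32 became -1.81 (adjusted p = 0.0582) without Das replicate 3, and the call was lost. The call was also lost when any 1 of the 4 S + D libraries was left out, and held in 13 of 18 alternatives.

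The response to Sal with Das was next set against that without Das, Sal against the control at 72 h. These contrasts share no library. Without Das, 1539 genes were higher (9.23%) and 1576 lower (9.45%) past both cutoffs. Of the 585 genes higher with S + D than with Das, 476 were also higher with Sal alone (81.4% of the former and 30.9% of the latter list), and of the 892 lower genes 690 were also lower (77.4% and 43.8%). The median log2 fold change of the 585 was 2.21 with Das and 3.05 without, and that of the 892 was -2.17 and -2.33. These genes were chosen by their change with Das. At an adjusted p below 0.01 the response itself was more positive with Das for 573 genes (3.43%) and more negative for 682 (4.09%), and past both cutoffs these were 231 (1.38%) and 279 (1.67%).

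Sterol synthesis was the list with most such differences downward. Of its 24 genes, 12 responded more negatively to Sal with Das than without and none more positively, with a median difference of -1.03. Without Das replicate 3 there were 13, while negative differences past both cutoffs over all genes went from 279 to 498. With Sal alone 11 of the 24 rose and 3 fell (26.3% and 26.8% of all genes), and with Das alone 15 rose and none fell, whereas Sal added to Das raised none and lowered 13. HMGCS1, the synthase that makes HMG-CoA, had a mean of 154 CPM in the controls and 292 CPM with Sal, and was at 249, 351, 369 and 292 CPM with Das and at 232, 210, 193 and 188 CPM with S + D. Its change was 0.93 for Sal alone and -0.62 for Sal added to Das, a difference of -1.54 (adjusted p = 8.72e-05). Of its exon bases 37.7% are shared with a gene without a symbol. TM7SF2 (-1.78), INSIG1 (-1.59) and MSMO1 (-1.45) differed in the same direction.

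**Figure D3:**
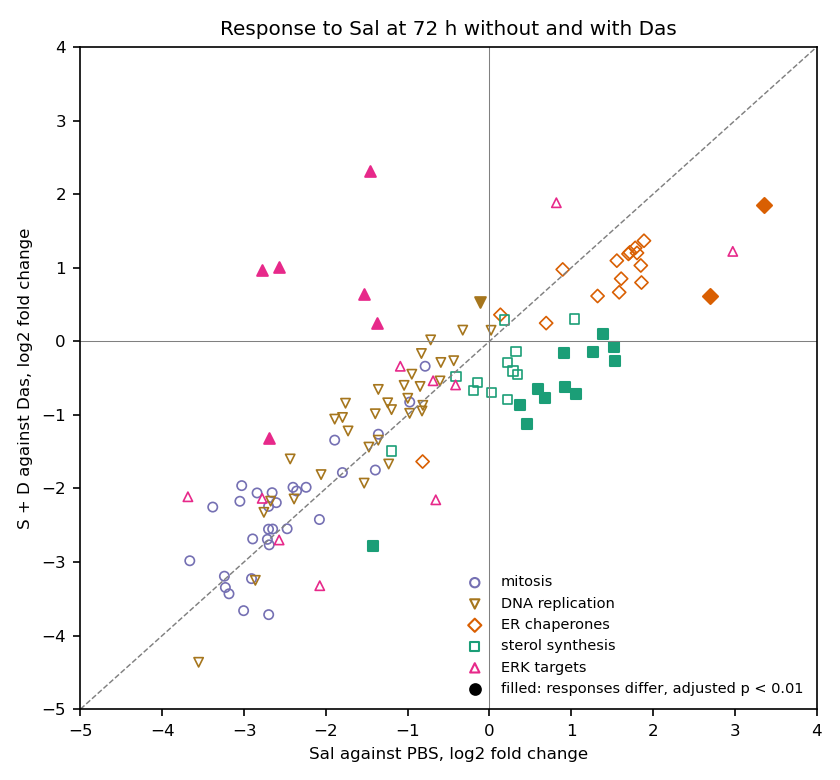
Log2 fold change of S + D against Das (vertical axis) and of Sal against PBS (horizontal axis) at 72 h for the genes of 5 lists. Points are genes, the dashed line marks equal responses and filled symbols mark genes whose responses differed at an adjusted p below 0.01. Sterol genes lie below the line, with 12 filled, and mitosis genes lie along it with none filled.

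ERK targets went the other way. Of 16, 6 responded more positively to Sal with Das and none more negatively. Without Das replicate 3 there were 8 and 1 and in the numbered libraries 7 and 1. Over all genes, the differences past both cutoffs were 231 higher and 279 lower with all libraries. They were 320 and 498 without Das replicate 3 and 400 and 326 in the numbered libraries. SPRY4, a feedback inhibitor of receptor kinases, had a mean of 34.4 CPM in the controls and 5.77 CPM with Sal, and was at 1.31, 0.800, 0.602 and 0.433 CPM with Das and at 2.59, 1.35, 1.32 and 1.24 CPM with S + D. It thus fell with Sal alone by 2.57 and rose with Sal added to Das by 1.01, the latter not without Das replicate 3 (adjusted p = 0.0264). FOSL1 (difference 3.78, adjusted p = 1.07e-05) and ETV4 (3.75, adjusted p = 1.62e-05) differed likewise. MYC, which fell in both contrasts, fell by 2.86 with Sal alone and by 1.21 with Sal added to Das, a difference of 1.65 (adjusted p = 0.00046). In all, 5 genes were past both cutoffs in opposite directions, each lower with Sal alone and higher with Sal added to Das, and they are named here after their values were seen. IVL, a protein of the cornified envelope, had a mean of 9.84 CPM in the controls and 2.89 CPM with Sal, and was at 0.632, 0.862, 1.06 and 0.619 CPM with Das and at 5.26, 5.15, 4.00 and 4.80 CPM with S + D. TNC, TNF, ANK1 and NEURL3 were the others, with log2 fold changes from 1.65 to 2.67 with Das and from -3.43 to -1.85 without. Their levels with Das were low, at 0.106 to 0.186 CPM for TNC and 0.124 to 0.535 CPM for TNF. For ANK1 they were 0.122 to 0.155 CPM and for NEURL3 0.319 to 0.949 CPM. With S + D, TNC was at 0.807 to 1.35 CPM and overlapped Sal alone (0.454 to 2.82 CPM). NEURL3 also overlapped, while TNF and ANK1 lay above Sal alone. Whether the low levels with Das account for the opposite directions was not tested. All 5 genes still passed both cutoffs for Sal added to Das without Das replicate 3.

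Mitosis and ER chaperones responded to Sal in the same direction with and without Das. For mitosis the median was -2.25 with Das and -2.70 without, and none of the 30 genes differed at an adjusted p below 0.01, though without Das replicate 3 there were 3 with a more positive response with Das. For DNA replication 1 of 34 (RFC2) responded more positively with Das, and 10 did without Das replicate 3. For ER chaperones the medians were 0.98 and 1.70, and HSPA5 (difference -1.50, adjusted p = 0.00945) and HERPUD1 (-2.07, adjusted p = 0.00219) responded less with Das, where without Das replicate 3 there were 6 such genes. Over all genes, leaving out Das replicate 3 also gave more differences of responses past both cutoffs, 320 higher and 498 lower against 231 and 279. The share over all genes at the adjusted p alone without Das replicate 3 is not given. HSPA5 was at 3606 to 4497 CPM with S + D, and its mean with Sal alone was 3877 CPM. Genes at or near 0 in the controls gave the most negative differences. MUC4, a membrane mucin, had a mean of 0.0624 CPM in the controls and 45.7 CPM with Sal, and was at 3.89, 5.26, 3.12 and 0.0309 CPM with Das and at 43.2, 24.2, 36.3 and 34.9 CPM with S + D. The responses differed by -5.92, a fitted value that depends on the few counts in the controls. LRRC55 gave the most positive difference, 6.13, with a mean of 28.4 CPM in the controls and 0.202 CPM with Sal, and 0.243 to 0.369 CPM with Das and 0.0294 to 0.258 CPM with S + D.

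At 24 h far fewer genes separated S + D from Das. In a fit of all 32 libraries over 17227 genes, 21 were higher (0.122%) and 25 lower (0.145%) past both cutoffs at 24 h, against 603 and 949 at 72 h in the same fit. Of the 21 higher genes 13 were also called at 72 h (61.9%, and 2.16% of the 72 h list), and of the 25 lower genes 19 were (76.0% and 2.0%). The difference between the time points itself passed both cutoffs for 187 genes higher at 72 h (1.09%) and 431 lower (2.5%). None of the 30 mitosis genes passed at 24 h, when 2.25% of all genes were higher and 2.57% lower at the adjusted p alone. By the test of the difference, 27 of them were lower at 72 h than at 24 h and none higher (6.57% and 3.84% of all genes). Without Das replicate 3, 23 of them were lower, where 290 of all genes were lower past both cutoffs against 431 with it. DNA replication had 10 falls and no rise at 24 h, among them MCM2 to MCM7 and PCNA, and ER chaperones 6 rises, among them HSPA5 (log2 fold change 1.22, adjusted p = 0.00756). CCND1 was lower at 24 h by 1.36 on the log2 scale (adjusted p = 3.98e-05). Sterol synthesis had 1 rise (STARD4) and no fall at 24 h, with a median of -0.03.

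**Figure D4:**
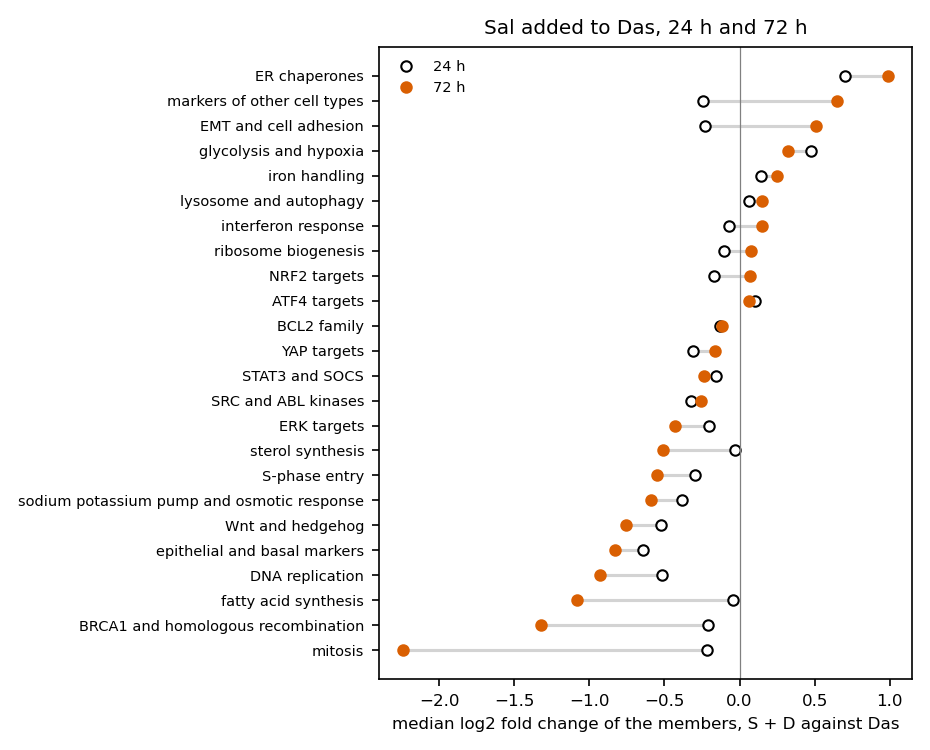
Median log2 fold change of the members of 24 gene lists (vertical axis) for S + D against Das (horizontal axis) at 24 h (open) and 72 h (filled), from the fit of all 32 libraries. Mitosis moves from -0.21 to -2.24, while ER chaperones lie above 0 at both time points.

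Das replicate 3 was the library whose removal gave the lowest counts in both directions. Without it 481 genes were higher (2.84%) and 651 lower (3.84%), of which 459 and 644 were among those called with it, whereas leaving out any other of the 8 libraries left 563 to 749 higher and 822 to 945 lower genes. The 749 were those without the unnumbered Das library, a larger move than that of replicate 3, in the other direction. Among the genes called without it, its own level lay beyond the other 3 Das libraries on the side away from S + D for 65.5% of the higher and 76.7% of the lower genes, and on the near side for 6.24% and 4.3%. Leaving it out made the fold change smaller for 1351 of the 1477 genes called with it and turned the direction of none.

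It did not lie near the controls throughout. Over all 16682 genes tested, it lay above the other 3 Das libraries for 5365 and below them for 5282. Relative to the other 3 Das libraries, it was higher for all 30 mitosis genes, with a median log2 ratio of 1.22 where the control mean gave 1.20, and lower for 16 of 17 ER chaperones (-0.88, control -0.75) and 20 of 24 ATF4 targets (-0.645, control -0.77). For the ERK targets its median ratio was -0.07 where the control gave 2.18, with 6 of 16 genes above and 7 below all 3 other Das libraries. For sterol synthesis it was 0.04 where the control gave -0.64, with 6 of 24 above and 5 below. FOSL1 was at 0.217 CPM in it and 6.53 CPM on average in the controls. The medians of its ERK targets and sterol genes were thus nearer to the other Das libraries, and those of its mitosis genes, ER chaperones and ATF4 targets nearer to the controls. Over 17227 genes its root mean square log2 distance was 0.516 to the mean of Das at 24 h, 0.607 to the control at 72 h and 0.609 to the other Das libraries at 72 h, while the other 3 lay at 0.588 to 0.637, 0.804 to 0.883 and 0.373 to 0.554. The labels name nothing that sets this library apart, and why it differs was not tested.

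**Figure D5:**
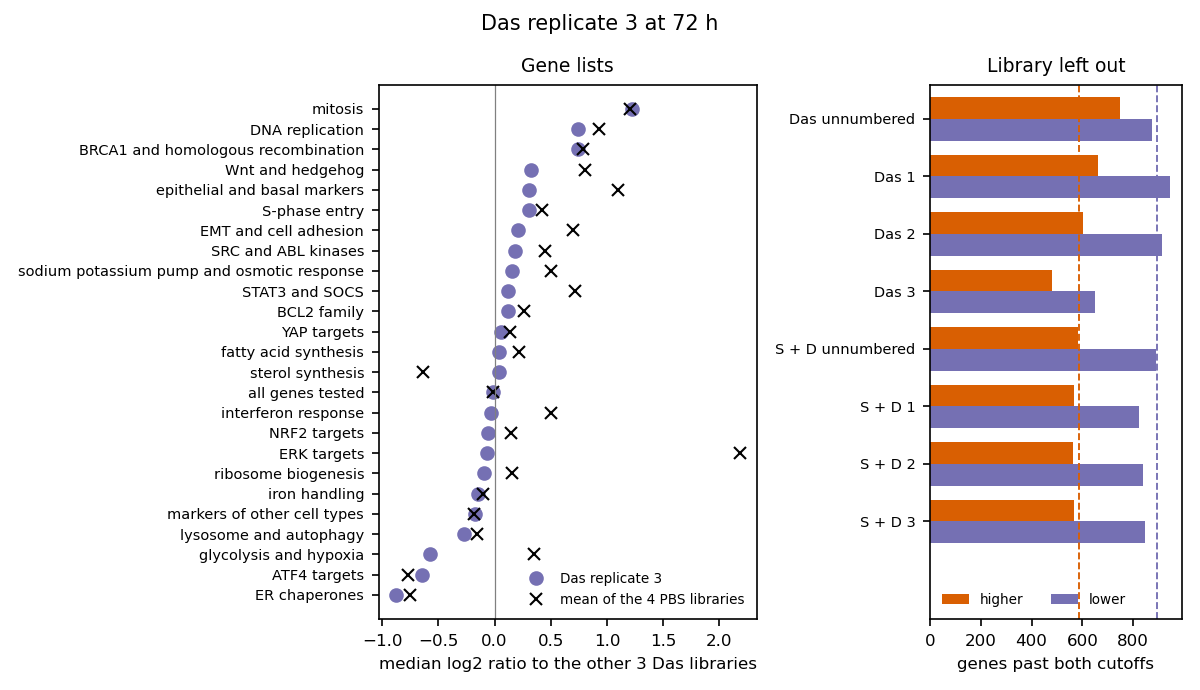
Left, median log2 ratio to the mean of the other 3 Das libraries at 72 h (horizontal axis) over the members of each gene list and all genes tested (vertical axis), for Das replicate 3 (circles) and the mean of 4 PBS libraries (crosses). Right, genes past both cutoffs (horizontal axis) when each library is left out (vertical axis), with dashed lines at 585 higher and 892 lower genes with all libraries. The medians of mitosis and ER chaperones in Das replicate 3 lie near PBS, those of ERK targets and sterol synthesis near 0.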

How the data were processed

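RNA of MDA-MB-468 cells was sequenced from TruSeq libraries, and per the methods and processing notes the reads were demultiplexed with bcl2fastq 2.19 and aligned with STAR 2.5.2 to GRCh37. The values used here are the raw counts per gene that the authors deposited for 48804 Ensembl genes in 32 libraries, with no normalization. The counting program and its use of strand are not given in the sources used here. Gene symbols matched 46537 identifiers.

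Counts were tested with edgeR 4.0.16 (R 4.3.3), by the quasi-likelihood test with TMM scaling, filterByExpr at a minimum count of 10 and Benjamini-Hochberg adjustment over all genes tested. The fit held the 16 libraries of 72 h, and all 32 for the comparison of time points. The groups came from the labels. The 4 replicates are stated to be independent, with no days given. The difference of responses is (S + D minus Das) minus (Sal minus control). DESeq2 1.42.0, other scaling, no filter, a block or a term for the unnumbered libraries, other cutoffs and leaving out each library were tried. Counting intervals and floors cover counting error only.

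Named genes were the 12 largest rises and 12 largest falls by fold among non-overlapping genes of at least 1 CPM, the 6 per direction largest by CPM difference, the largest riser and faller of each of 24 lists, the 4 per sign for the difference of responses, for time and for the shift without Das replicate 3, and genes named in the study's text. Other list members named were chosen after their values were seen. The members and lists were chosen with earlier results of these data known. Promoters are from RefSeq (GRCh38.p14). A list of mitochondrial genes was not analysed here. Some genes that these rules name are not reported here.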

Additional observations from a re-analysis of the deposited data

Results flagged for a closer look

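In 36 of 258 groups of 4 libraries examined, 1 library lay farther from the other 3 than Dixon's critical value at the 95% level allows, where chance gives about 1 in 20. Of these, 15 concerned Das replicate 3 and 10 the unnumbered S + D library. CLCA2, EGR1, MUCL1 and TMEM171 were named for their shift without Das replicate 3, so the number for that library is not independent of the choice of genes. Values are in CPM, with the range of the other 3 libraries of the group after each.

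Das replicate 3 stood apart for CLCA2 (38.3 against 4.31 to 7.59), FMO6P (8.94 against 4.46 to 4.96), CYP4Z1 (28.5 against 8.34 to 11.4), CYP4Z2P (2.85 against 0.957 to 1.26), FTL (190 against 540 to 597), RFC2 (52.0 against 40.1 to 42.1), RRM2 (397 against 83.9 to 121), ASPM (238 against 75.2 to 100), BRIP1 (28.9 against 8.49 to 11.7), EGR1 (7.43 against 0.851 to 0.957), PDIA2 (0.0309 against 1.13 to 1.35), MUCL1 (12.6 against 2.25 to 2.83), TMEM171 (2.44 against 0.369 to 0.673), CCND1 (98.1 against 49.2 to 56.9) and CCNE2 (43.0 against 11.1 to 14.6). The unnumbered Das library stood apart for ADAMTS16 (0.0243 against 0.00 to 0.00), SIGLEC1 (0.0973 against 0.00 to 0.00), ENO2 (22.9 against 5.82 to 8.59), AKR1B1 (50.3 against 20.3 to 22.9) and CCL20 (0.316 against 0.0354 to 0.0619), and on the second principal component (-0.681 against -48.7 to -44.3). For ADAMTS16 and SIGLEC1 it held 1 and 4 counts. With the other 3 libraries at 0, any count above 0 gives a flag, so these flags, included in the 36, carry no information. Das replicate 1 stood apart for SOCS2 (3.26 against 2.51 to 2.58).

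The unnumbered S + D library stood apart for FADS2 (11.9 against 21.1 to 22.6), ENO2 (52.1 against 31.6 to 34.6), LAMB3 (6.06 against 9.51 to 10.2), PDIA2 (5.06 against 3.71 to 3.85), SELENOKP3 (1.00 against 1.56 to 1.57), E2F1 (20 against 9.57 to 10.9), CDK2 (25.8 against 18.8 to 19.8) and BIRC5 (26.2 against 9.86 to 11.1), for the summed level of the mitosis list (760.7 against 461.8 to 502.2) and on the first principal component (67.0 against 71.9 to 72.6). S + D replicate 1 stood apart for CYP4Z2P (0.188 against 0.00 to 0.0294), HSPA5 (4497 against 3606 to 3705) and KRT14 (0.502 against 0.232 to 0.278), and for the summed level of the SRC and ABL kinases (997.8 against 1103 to 1124).

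In the test of the difference of responses, 3.43% of all genes were more positive with Das and 4.09% more negative (adjusted p below 0.01). Named genes include the 4 per sign with the largest differences, so the number that passed is not independent of their choice. By the same test the response to Sal differed with and without Das for 29 of the 102 named genes tested. On the log2 scale it was more positive with Das for LRRC55 (6.13), TNC (6.10), CCL20 (5.52), CXCL1 (5.42), GRIN2A (3.85), FOSL1 (3.78), KRT16 (3.45), KRT14 (3.08), AKR1B1 (1.96), MYC (1.65), ANXA1 (1.40), STAT5A (1.39), SRC (1.17), LYN (1.00), STAT3 (0.66) and RFC2 (0.64). It was more negative with Das for PDIA2 (-7.97), HTRA3 (-7.24), MUC4 (-5.92), LINC02475 (-5.75), NPHS1 (-4.81), NAT16 (-4.02), CRISP3 (-2.87), CRISP2 (-2.58), LRRC31 (-2.50), KRT4 (-2.44), FMO6P (-2.10), HSPA5 (-1.50) and ESR1 (-1.04). Genes at or near 0 in the controls, such as PDIA2 and HTRA3, have fitted differences that depend on the prior count.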

How the results depend on the processing

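No named gene that passed the test turned its direction under any alternative run; STAT3, which did not pass, ranged from -0.08 to 0.01 on the log2 scale. For S + D against Das at 72 h (585 higher, 892 lower), the adjusted p alone gave 2391 and 2957, a fold change above 1.5 gave 1951 and 2528, and the 7 libraries compared without Das replicate 3, fitted on their own, gave 432 and 576. Leaving out 1 library gave 481 to 749 higher and 651 to 945 lower genes, the lowest of both without Das replicate 3. For the difference between the responses to Sal (231 higher, 279 lower), the adjusted p alone gave 573 and 682 and a fold change above 1.5 gave 567 and 680, while the replicate block gave 358 higher, the numbered libraries 400 and a term for the unnumbered libraries 355. Leaving out 1 library gave 167 to 376 higher (376 without the unnumbered Sal library) and 173 to 498 lower genes (173, 183 and 498 without Das replicates 1, 2 and 3). For 72 h against 24 h (187 higher, 431 lower), the adjusted p alone gave 661 and 1132, a fold change above 1.5 gave 609 and 1052, and the replicate block gave 291 higher, the numbered libraries 367 and the term 312. Leaving out 1 library gave 145 to 242 higher and 290 to 512 lower genes. The cause of these moves was not tested, beyond the looser cutoffs and the fewer libraries themselves.

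Replicate numbers did not pair the libraries: deviations of Das and S + D libraries with the same number correlated at 0.0853 to 0.198, and those of the unnumbered libraries at 0.626. Across the 4 groups at 72 h the unnumbered libraries deviated together, with correlations from 0.532 to 0.626. The fits behind the counts in Results held no term for them. With the replicate block S + D against Das gave 643 higher and 909 lower genes, and DESeq2 gave 612 and 905. Over the named genes, 1797 values kept their side of the threshold, 68 lost it and 5 gained it. Counts of a few reads limit genes near 0.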
